A study of Mus musculus with 53 samples.

Results

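The RUNX family comprises the DNA-binding proteins Runx1, Runx2 and Runx3, which pair with a common partner, Cbfb, that binds no DNA itself and raises their affinity for it. All probe sets that the array's gene table pairs with these 4 genes were taken, 7 of 22690. The table names 12393 genes by a single symbol. Runx1 had 5, Runx3 and Cbfb had 1 each, and Runx2 was not analysed here because the table pairs no probe set with it. No probe set paired a member with another gene. The values are log2 deposited intensities of 53 mouse T-cell lymphoblast tumours from 15 genetic backgrounds, with 1 array per tumour.

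All tumours carried the strain label C57BL/6 and none was treated. Mice with a TLX1 transgene that were also RUNX heterozygous gave 6 tumours, called crossed tumours here. Mice with the TLX1 transgene alone gave 6 tumours. TLX1 is a homeobox transcription factor that drives T-cell leukaemia when it is expressed in thymocytes. The other 13 backgrounds gave 41 tumours. They were beta-catenin, LMO1, Nup98HoxD13, Pokemon, Tal1 and ThPOK transgenic mice, Olig-LMO1 and Tal1-LMO2 double transgenic mice, Ikaros Plastic mice, and E2A, rag E2A and p53 knockout mice. The last background was Cdkn2a knockout mice with retroviral insertional mutagenesis, which gave 9 of the tumours. The rest gave 2 or 3 each. The titles of the Cdkn2a knockout tumours carry different gene labels, among them myc, ras, myb and mixes. Their replicate numbers here follow the sample order and are not from the titles. These tumours were fitted as a single group, so differences between labels count as spread within it. The sample titles name RUNX1 for the cross, but the altered exon, the promoters of the transgenes and the number of animals behind each group were not given in the sources used here. The status label of the crossed tumours reads TLX1 negative, against the transgene in their genotype. The Olig label reads olig1 in the genotype and olig2 in the titles. Normal thymus was not analysed here.

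As background, Runx1 is needed for blood stem cells to form and for early thymocytes to expand, and it silences Cd4 in immature thymocytes. Runx3 keeps Cd4 off in cells of the CD8 lineage and favours cytotoxic genes. Runx2 is the master regulator of bone formation. RUNX1 acts as a tumour suppressor in part of human T-cell leukaemia, and TLX1 has been reported to repress it. Runx genes are themselves read from a distal and a proximal promoter, and RUNX proteins recognise the hexamer ACCACA.

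The region around the start of the distal transcript is shown because it carries the family's own recognition hexamer as a close pair. The RefSeq windows, GRCm38.p6, run from 250 bases before to 50 after a gene start. The 30 bases around the pair read as follows, 5′ to 3′ on the gene's strand, with each hexamer in capitals.
Runx1 (chr16:92826025-92826054, minus strand): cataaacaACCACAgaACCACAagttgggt
Runx2 (chr17:44814583-44814612, minus strand): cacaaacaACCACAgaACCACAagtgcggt
Runx3 (chr4:135120503-135120532, plus strand): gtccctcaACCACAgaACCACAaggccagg

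The pair starts 28 bases after the annotated start in Runx1, 23 after it in Runx2 and 134 before it in Runx3. Of 32851 promoter windows of 300 bases, 16.8% held ACCACA or TGTGGT, its reverse complement, and 0.0213% held the spaced pair ACCACANNACCACA on either strand. That is 7 windows, of which 3 belong to the Runx genes. The proximal windows of Runx1 (chr16:92697280-92697579) and Runx3 (chr4:135152295-135152594) and the window of Cbfb (chr8:105170424-105170723) held neither hexamer. The match is a description of sequence, and no binding was measured here.

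How bright each probe set was is given only to show which ones a filter on dim signal keeps, since brightness also depends on the probe and does not rank the genes. The Cbfb probe set 1460716_a_at lay above the array median on 53 of 53 arrays. Among the Runx1 probe sets, 1452530_a_at did so on 53 arrays, 1427650_a_at on 52, 1422864_at on 45, 1452531_at on 38 and 1422865_at on 32. The Runx3 probe set 1421467_at did so on 2 arrays and sat at percentile 32.2 of its array in the median case. A filter requiring 3 arrays above the median kept 6 of the 7 probe sets. No source used here gives the part of the transcript that each probe set reads, so the Runx1 probe sets are kept apart throughout.

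The arrays fell into sets that follow the genotypes in part. Clustered on 27 bacterial control probe sets, 38 arrays formed 1 set, the 6 TLX1 arrays and p53 knockout replicates 1 and 2 formed another, 1 Tal1-LMO2 array stood apart, and the 6 crossed arrays shared a set with no other tumour. Crossed arrays had a log2 median of 8.61 ± 0.03, TLX1 arrays 8.99 ± 0.06 (SD, n = 6 each) and the rest 8.94 ± 0.11 (n = 41). The beta-actin 3′ minus 5′ log2 ratio, a measure of RNA integrity, averaged 0.77 ± 0.11 for crossed arrays, 1.39 ± 0.62 for TLX1 arrays and 0.31 ± 0.31 for the rest. The crossed genotype and its array set cannot be told apart. Because the array medians differed, the comparisons are also given after centring every array on its median. Centring removes a shift of a whole array and does not separate the genotype from the array set. Between 7 and 9 of 9 T-cell markers lay above the array median in crossed tumours and 8 or 9 in TLX1 tumours, against 4 to 9 in the others. Other lineages also passed that line in crossed tumours, with 5 to 7 of 7 myeloid and 6 of 6 stromal markers, while 0 of 2 NK-cell markers did, so the measure does not set T cells apart.

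**Figure D1:**
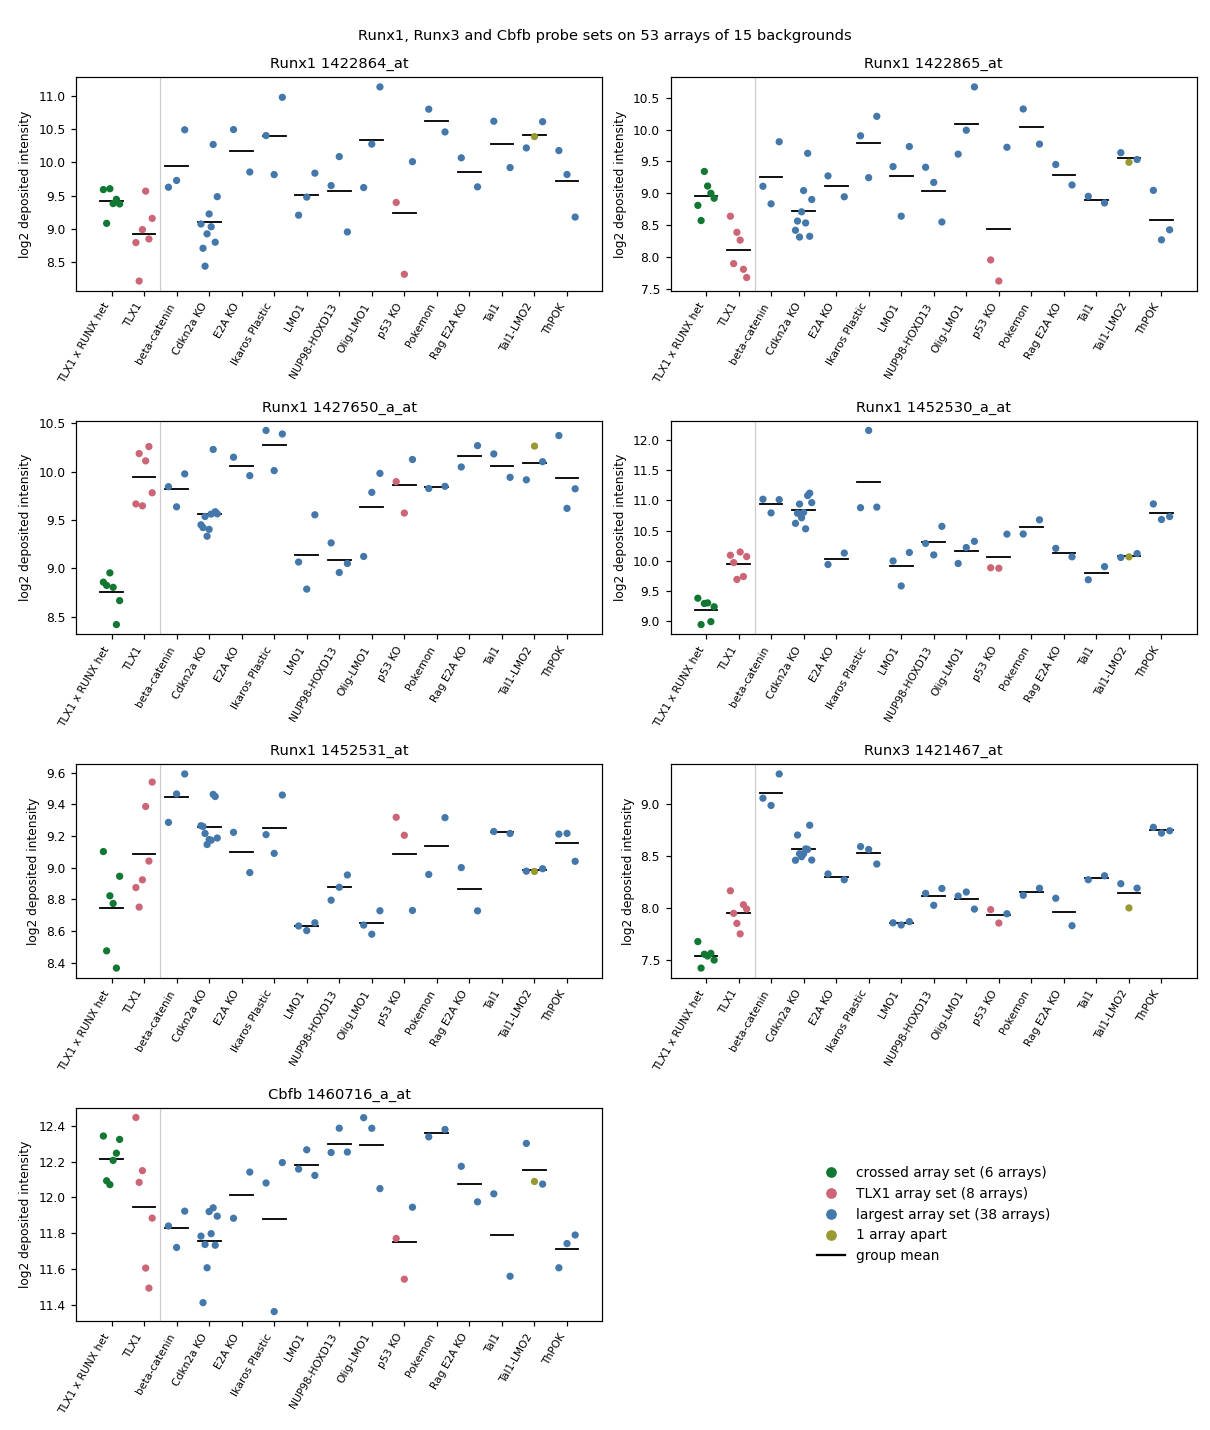
Log2 deposited intensity (y axis) of the 7 probe sets on each of 53 arrays, by background (x axis), with crossed tumours leftmost, TLX1 tumours next and the other 13 backgrounds to the right. Points are arrays coloured by array set and black lines are group means; crossed tumours lie lowest for Runx1 1427650_a_at and 1452530_a_at and for Runx3.

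The first question is what became of Runx1, the gene named in the cross. In crossed tumours, Runx1 was lower than in TLX1 tumours by 2 of its 5 probe sets under all 3 scalings (deposited, median-centred and quantile-normalized), and higher by 1 probe set under all 3. Its 5 probe sets therefore gave no single direction for the gene. Of all 7 member probe sets, 1 was higher and 4 were lower with deposited values. Across the array 62.1% of 22626 probe sets passed (20.4% higher and 41.8% lower), so the count of 5 says little about the members. Calls here are limma's, with a Benjamini-Hochberg adjusted p under 0.05 over all probe sets.

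For Runx1 1427650_a_at the crossed tumours ranged from 8.42 to 8.95 (median 8.82), and the TLX1 tumours from 9.65 to 10.26 (median 9.95). Every crossed tumour lay below every TLX1 tumour. The difference was -1.19 ± 0.15 (log2, SE), which is 0.439 of the TLX1 level (adjusted p = 4.55e-09, limma). It was -0.81 after centring and -0.87 after quantile normalization.

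For Runx1 1452530_a_at the crossed tumours ranged from 8.95 to 9.38 (median 9.27), and the TLX1 tumours from 9.69 to 10.15 (median 10.02). Again the groups did not overlap. The difference was -0.76 ± 0.14 (adjusted p = 1.65e-05, limma), or 0.591 of the TLX1 level. It was smaller after centring, -0.38, which also passed (adjusted p = 0.0123, limma), and -0.53 after quantile normalization.

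The probe set 1422865_at went the other way. Its crossed values ran from 8.57 to 9.34 (median 8.96), and its TLX1 values from 7.68 to 8.64 (median 8.08). The lowest crossed tumour fell within the TLX1 range. The difference was 0.85 ± 0.26 (adjusted p = 0.00472, limma), 1.22 after centring and 1.18 after quantile normalization. Fitted with the beta-actin ratio as covariate, it was 0.30 ± 0.26 and no longer passed (adjusted p = 0.327, limma), while 1427650_a_at stayed at -1.20 and 1452530_a_at at -0.94.

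The last 2 Runx1 probe sets depended on the scaling. The difference of 1422864_at was 0.48 (95% interval -0.07 to 1.04, adjusted p = 0.125, limma) with deposited values. It was 0.86 after centring and 0.72 after quantile normalization, and passed under both. The difference of 1452531_at was -0.34 ± 0.11 (adjusted p = 0.00906, limma) with deposited values but 0.04 after centring and 0.02 after quantile normalization, neither of which passed. Its call was also lost without TLX1 replicate 6 (-0.25, adjusted p = 0.05001, limma) and with the beta-actin covariate (-0.21, adjusted p = 0.154, limma).

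The Runx3 difference depended on the scaling too. Its crossed values ran from 7.42 to 7.68 (median 7.55), against 7.75 to 8.17 (median 7.97) in TLX1 tumours, without overlap. The difference of -0.41 ± 0.06 (adjusted p = 4.96e-07, limma) shrank to -0.04 (95% interval -0.17 to 0.09) after centring and to -0.03 after quantile normalization. The median of all probe sets in this comparison was -0.15 with deposited values and 0.23 after centring, so the deposited and centred scales differ by more than the Runx3 difference that remains.

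Cbfb, the partner subunit, ran from 12.07 to 12.34 (median 12.23) in crossed tumours and from 11.49 to 12.45 (median 11.98) in TLX1 tumours. The crossed values lay inside the TLX1 range, whose spread was wider (SD 0.36, against 0.11 in crossed tumours). The difference was 0.27 ± 0.12 (adjusted p = 0.0542, limma) with deposited values. After centring it was 0.64 ± 0.14 and passed (adjusted p = 6.55e-05, limma), and after quantile normalization it was 0.20 and did not. Without TLX1 replicate 1 it was 0.37 (adjusted p = 0.00708, limma). Without crossed replicate 2 or 3, or TLX1 replicate 2 or 3, it also passed, at 0.29 to 0.31.

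Over the 7 members, 3 had groups that did not overlap with deposited values, all with crossed tumours lower. Of all probe sets 41.9% had such a gap in either direction, wholly above or wholly below. After centring 2 members were wholly higher and 2 wholly lower in crossed tumours, and 43.7% of all probe sets had a gap in either direction. The share of all probe sets with a gap in a given direction is not given here. Tests after centring called 3 members higher and 2 lower (68.8% of all probe sets called, 44.7% higher and 24.1% lower), and after quantile normalization 2 higher and 2 lower (61.1% of all probe sets called, 33.4% higher and 27.7% lower). In these bulk samples, fewer cells of a type and less RNA per cell cannot be told apart.

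**Figure D2:**
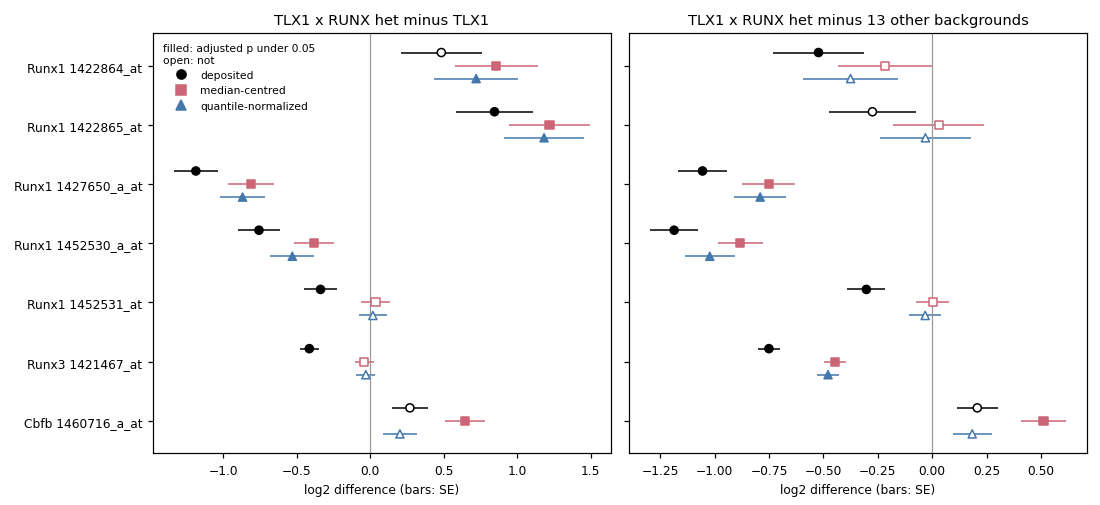
Log2 difference (x axis, bars are SE) of crossed tumours from TLX1 tumours (left) and from the mean of 13 other backgrounds (right) for each probe set (y axis), with deposited, median-centred and quantile-normalized values. Filled symbols have adjusted p under 0.05 (limma); Runx1 1427650_a_at and 1452530_a_at lie below 0 in both panels under every scaling.

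Set beside the 13 other backgrounds, the crossed tumours were lower for 5 of 7 members with deposited values and higher for 0 by limma (1 higher at unadjusted p under 0.05). Of all probe sets 66.5% passed, 20.7% higher and 45.8% lower. After centring 1 member was higher and 3 were lower (69.3% of all probe sets passed, 44.2% higher and 25.1% lower). The deepest difference was at Runx1 1452530_a_at, -1.19 ± 0.11, or -0.88 after centring. All 6 crossed tumours (8.95 to 9.38) lay below all 41 others (9.59 to 12.15, median 10.44), also after centring. Only 2 members had such a gap with deposited values and 1 after centring. Of all probe sets 16.9% and 12.3% had a gap in either direction, wholly above or wholly below. The second member was Runx3, at 7.42 to 7.68 in crossed tumours and 7.83 to 9.29 (median 8.27) in the others.

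The Runx3 difference from the 13 backgrounds was -0.75 ± 0.05 with deposited values (adjusted p = 1.88e-16, limma) and -0.45 after centring, where it still passed (adjusted p = 4.54e-10, limma). The difference of Runx1 1427650_a_at was -1.06, or -0.75 after centring, but the groups overlapped. With deposited values LMO1 replicate 2 (8.79) lay within the crossed range. After centring that range was 8.71 to 9.25. LMO1 replicates 1 and 2, NUP98-HOXD13 replicates 2 and 3 and Olig-LMO1 replicate 1 then lay within it. The other 3 Runx1 probe sets had no called difference after centring. With deposited values 1422864_at (-0.52) and 1452531_at (-0.30) passed and 1422865_at (-0.27) did not, and the call of 1422864_at was lost without crossed replicate 2 (-0.46, adjusted p = 0.0798, limma) and with the beta-actin covariate (-0.44, adjusted p = 0.108, limma). Cbfb was 0.21 ± 0.09 with deposited values (adjusted p = 0.0509, limma) and 0.51 after centring (adjusted p = 3.9e-05, limma). It also passed in 15 of the 47 settings that left out 1 array, at 0.19 to 0.24, among them the removal of crossed replicate 2, crossed replicate 3 and each Ikaros Plastic replicate.

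In TLX1 tumours without the cross, Runx1 and Runx3 were low against the 13 backgrounds in 4 of 7 probe sets and no member was higher by limma (0 at unadjusted p under 0.05). Of all probe sets 55.3% passed, 30.8% higher and 24.5% lower. Runx1 1422865_at ran from 7.68 to 8.64 in TLX1 tumours (median 8.08), against 7.63 to 10.67 (median 9.13) in the others. The groups overlapped. Its difference was -1.12 ± 0.20 (adjusted p = 8.09e-06, limma). Runx1 1422864_at ran from 8.22 to 9.57 (median 8.92) in TLX1 tumours, against 8.32 to 11.14 (median 9.82) in the others, with a difference of -1.01. The other called differences were -0.43 for Runx1 1452530_a_at and -0.34 for Runx3. Those of 1427650_a_at (0.13), 1452531_at (0.04) and Cbfb (-0.06) did not pass. The same 4 probe sets passed after centring (55.8% of all probe sets, 25.2% higher and 30.6% lower), at -1.08 for 1422864_at, -1.19 for 1422865_at, -0.50 for 1452530_a_at and -0.41 for Runx3.

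None of these TLX1 differences passed within the array set. The p53 knockout arrays that share it, replicates 1 and 2, were at 9.40 and 8.32 for 1422864_at and at 7.96 and 7.63 for 1422865_at, against 10.01 and 9.72 in replicate 3, which lay in the largest set. TLX1 tumours minus those 2 arrays gave 0.07 ± 0.37 for 1422864_at, 0.32 ± 0.26 for 1422865_at, 0.07 ± 0.15 for 1452530_a_at and 0.04 ± 0.13 for Runx3. None of the 7 members passed (adjusted p 0.636 to 0.947, limma), and of all probe sets 6 were higher and 8 lower (1918 at unadjusted p under 0.05). With array set as a block, for which p53 knockout is the background that links the TLX1 set to the largest set, none passed either (4450 of all probe sets at unadjusted p under 0.05). The Runx3 value was then -0.32 ± 0.14 (adjusted p = 0.209, limma) and that of 1422865_at was 0.71 ± 0.50. With the beta-actin covariate 1 member was called, Runx3, at -0.37 (adjusted p = 8e-04, limma).

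**Figure D3:**
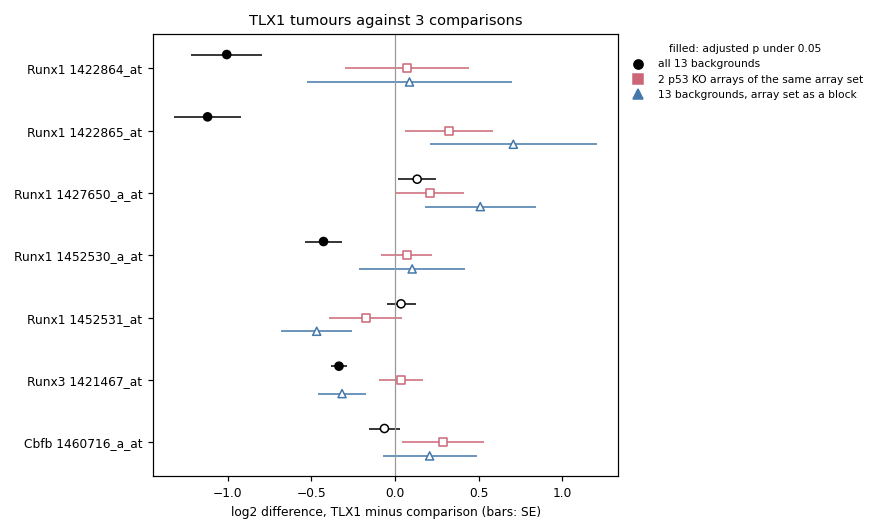
Log2 difference (x axis, bars are SE) of TLX1 tumours for each probe set (y axis) from the mean of 13 backgrounds, from the 2 p53 knockout arrays of the same array set, and from the 13 backgrounds with array set as a block. Filled symbols have adjusted p under 0.05 (limma); 4 are filled against all 13 backgrounds and none in the other comparisons.

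Among the 13 other backgrounds every member varied: 7 of 7 passed the moderated F-test with deposited values, as did 79.9% of all probe sets, and 7 of 7 after centring (83%). Runx3 had the highest F of the members, 32.3, above that of 99.4% of probe sets, and 98.1% after centring. Its only probe set is dim, above the array median on 2 of 53 arrays, and the filter on dim signal drops it. The Runx3 values below are therefore those of a low signal. The F of Runx1 1452530_a_at stood at 88.6%, and that of Cbfb at 49.0%. Tests of each background against the other 12 called 29 of 91 pairs of probe set and background, 31.9%, beside 19.4% of the pairs over all probe sets. Runx3 made up 8 of those pairs.

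Runx3 was highest in beta-catenin tumours, at 9.06, 8.99 and 9.29. ThPOK tumours followed at 8.78, 8.72 and 8.74, then Cdkn2a knockout tumours with a median of 8.52 (8.46 to 8.80) and Ikaros Plastic tumours at 8.59, 8.56 and 8.42. No beta-catenin tumour overlapped another background. The Cdkn2a knockout range overlapped that of ThPOK tumours and that of Ikaros Plastic tumours, which did not overlap each other. The E2A knockout (8.30 ± 0.04), Tal1 (8.29 ± 0.03), Pokemon (8.16 ± 0.05), Tal1-LMO2 (8.14 ± 0.12), NUP98-HOXD13 (8.12 ± 0.08) and Olig-LMO1 (8.09 ± 0.09) means came next. Apart from Tal1 and Pokemon tumours, neighbours in that run differed by less than the larger of their SDs. At the low end were rag E2A knockout (7.96 ± 0.19), p53 knockout (7.93 ± 0.07) and LMO1 tumours (7.85 ± 0.02).

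Against the other 12 backgrounds the Runx3 difference was 0.89 ± 0.07 in beta-catenin, 0.49 ± 0.07 in ThPOK and 0.30 ± 0.04 in Cdkn2a knockout tumours. After centring these were 0.71, 0.39 and 0.16, and all passed. The low values were -0.47 in LMO1 and -0.39 in p53 knockout tumours, and after centring -0.34 and -0.44, which passed too. The calls in Ikaros Plastic (0.25), Olig-LMO1 (-0.22) and rag E2A knockout tumours (-0.36) did not pass after centring, at 0.09, -0.12 and -0.24. The Ikaros Plastic call was also lost without replicate 2, and the Olig-LMO1 call without replicate 1 or without replicate 3. The rag E2A knockout value rested on 2 arrays, 8.09 and 7.83, and was -0.23 without replicate 4 (adjusted p = 0.556, limma).

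Runx1 1452530_a_at had its highest mean in Ikaros Plastic tumours, at 10.88, 12.15 and 10.89, where replicate 2 stood far above the others. That rank rested on replicate 2, since the other values lay below the beta-catenin mean of 10.94. The Ikaros Plastic difference was 1.004 ± 0.15, and 0.58 without replicate 2, when it still passed (adjusted p = 0.00538, limma). Ikaros is a zinc-finger regulator of lymphocyte genes, and the Plastic allele carries a point mutation in it. Beta-catenin tumours followed, at 11.02, 10.79 and 11.01, and then Cdkn2a knockout tumours with a median of 10.80 (10.53 to 11.12) and ThPOK tumours at 10.94, 10.68 and 10.73. The differences were 0.61, 0.50 and 0.44. The Tal1 tumours were lowest, at 9.69 and 9.90 (-0.63). LMO1 tumours were next, at 9.998, 9.59 and 10.14 (-0.51). The ThPOK and LMO1 calls did not hold after centring (0.34 and -0.38), and the LMO1 call was lost without LMO1 replicate 2 (-0.35). The Tal1 call was lost without either Tal1 array (-0.74 and -0.52), and the ThPOK call without any 1 of its 3 arrays (0.36 to 0.49).

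Runx1 1427650_a_at was lowest in NUP98-HOXD13 tumours, at 9.26, 8.96 and 9.05, and in LMO1 tumours, at 9.07, 8.79 and 9.55. The differences of -0.78 and -0.73 also passed after centring, at -0.72 and -0.60. Without NUP98-HOXD13 replicate 2 the first was -0.71 (adjusted p = 0.0669, limma). The highest were Ikaros Plastic tumours, at 10.43, 10.01 and 10.39, whose difference of 0.50 did not pass after centring (0.34), without replicate 1 or without replicate 3.

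Runx1 1422864_at and 1422865_at ran in parallel across backgrounds but spread widely within them, with pooled SDs of 0.54 and 0.51 against 0.27 for each of the 2 probe sets above. Both were low in Cdkn2a knockout tumours. There 1422864_at had a median of 9.03 (8.44 to 10.27) and a difference of -0.90 ± 0.18, and 1422865_at had a median of 8.57 (8.32 to 9.63) and a difference of -0.56. Both calls held after centring, at -1.03 and -0.70. Olig-LMO1 tumours were highest for 1422865_at, at 9.61, 9.99 and 10.67, with a difference of 0.93. Without replicate 3 that was 0.64 (adjusted p = 0.201, limma). ThPOK tumours were called low at 1422865_at (-0.71, adjusted p = 0.0486, limma), a call lost in 26 of 41 settings that left out a single array.

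The low calls of p53 knockout tumours at these 2 probe sets, -0.75 and -0.87, depended on single arrays. Without replicates 1 and 2, which leaves 1 p53 knockout array, they were 0.02 ± 0.46 and 0.42 ± 0.39, and without replicate 3 they were -1.14 and -1.51. Leaving out replicate 2 alone gave -0.29 and -0.46, neither passing (adjusted p = 0.540 and 0.274, limma), and without replicate 1 neither passed either. Replicates 1 and 2, which lay in the TLX1 array set, had beta-actin 3′ minus 5′ log2 ratios of 1.53 and 1.09, against 0.27 in replicate 3. The part of RNA integrity in these calls was not tested. The p53 knockout call at Runx3 stayed between -0.42 and -0.36 over all single arrays left out.

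The remaining Runx1 probe set, 1452531_at, covered a narrow range. Its background means ran from 8.63 ± 0.02 in LMO1 to 9.45 ± 0.15 in beta-catenin tumours (SD, n = 3 each). LMO1 tumours were at 8.63, 8.60 and 8.65, and Olig-LMO1 tumours at 8.64, 8.58 and 8.73. Both were called lower, at -0.46 and -0.44, and at -0.32 and -0.33 after centring. The Olig-LMO1 call was lost without replicate 1 or without replicate 2. The beta-catenin difference of 0.43 was 0.25 after centring and no longer passed (adjusted p = 0.0509, limma), nor did it without beta-catenin replicate 3 (adjusted p = 0.0604, limma). The Cdkn2a knockout difference of 0.23 was 0.09 after centring, and did not pass.

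With deposited values Cbfb had the narrowest range of background means, from 11.71 ± 0.09 in ThPOK to 12.36 ± 0.03 in Pokemon tumours (SD, n = 3 and 2), a 1.56-fold range. After centring its range was 0.78 (log2), wider than the 0.54 of Runx1 1452531_at. Only Cdkn2a knockout tumours were called, at a median of 11.78 (11.41 to 11.94) and a difference of -0.27 ± 0.08 (adjusted p = 0.00569, limma). After centring that was -0.40, and the ThPOK (-0.42), beta-catenin (-0.37) and Olig-LMO1 (0.42) differences passed as well. The Pokemon tumours, at 12.34 and 12.38, had the highest mean of the 13 but no called difference (0.38, adjusted p = 0.168, limma).

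Counted by background, Cdkn2a knockout tumours had all 7 members called, 3 higher and 4 lower, where 47.6% of all probe sets were. Its Runx1 call at 1427650_a_at (-0.27) was lost without replicate 4 (title label myc pure) or without replicate 5 (myc and ras mix). LMO1 tumours had 4 called, all lower (22.9% of all probe sets). Beta-catenin tumours had 3 higher (36.7%), Ikaros Plastic tumours 3 higher (28.6%), Olig-LMO1 tumours 1 higher and 2 lower (19.5%), ThPOK tumours 2 higher and 1 lower (26.8%) and p53 knockout tumours 3 lower (48.7%). NUP98-HOXD13 (4.28%), rag E2A knockout (2.86%) and Tal1 tumours (4.79%) had 1 lower each. By limma, E2A knockout (1.5%), Pokemon (3.89%) and Tal1-LMO2 tumours (4.02%) had 0 called, and 1, 3 and 2 at unadjusted p under 0.05.

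After centring the same tests called 2 members higher and 4 lower in Cdkn2a knockout tumours (47.8% of all probe sets), 2 higher and 1 lower in beta-catenin (37.6%), 4 lower in p53 knockout (49.4%) and 3 lower in LMO1 tumours (13.2%). Olig-LMO1 tumours had 2 higher and 1 lower (11.3%), and ThPOK tumours 1 higher and 2 lower (23.7%). Ikaros Plastic tumours had 1 higher (34.1%), and NUP98-HOXD13 (3.15%) and Tal1 tumours (4.68%) 1 lower each. By limma, E2A knockout (2.22%), Pokemon (3.25%), rag E2A knockout (2.71%) and Tal1-LMO2 tumours (7.65%) had 0 called, and 0, 3, 2 and 2 at unadjusted p under 0.05. Over all pairs of probe set and background 18.5% were called after centring.

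**Figure D4:**
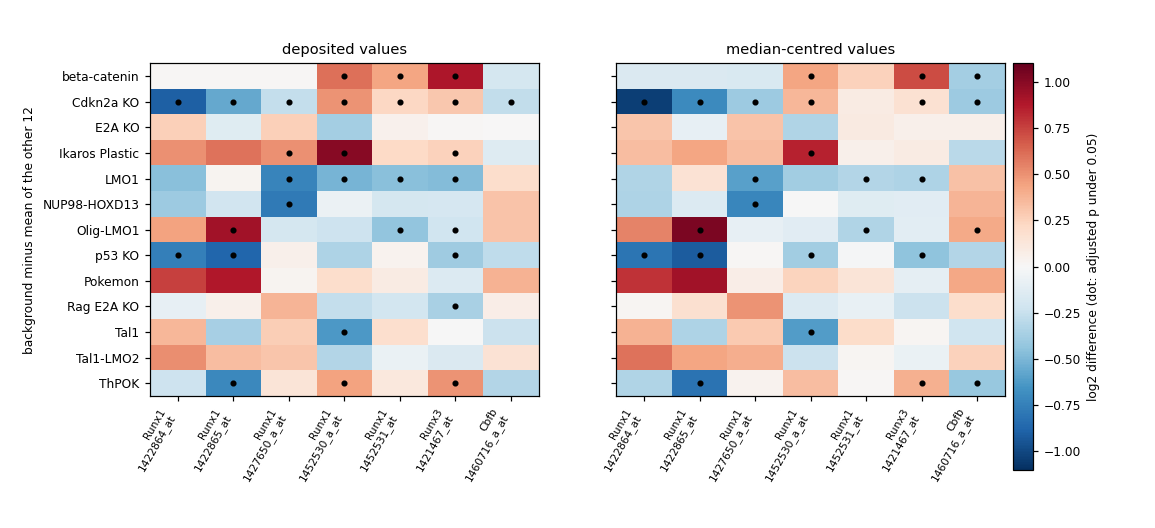
Log2 difference (colour) of each of the 13 other backgrounds (rows) from the mean of the other 12, for the 7 probe sets (columns), with deposited values (left) and median-centred values (right). Dots mark adjusted p under 0.05 (limma). Runx3 is highest in beta-catenin tumours, 0.89 and 0.71, and Runx1 1452530_a_at in Ikaros Plastic tumours, 1.004 and 0.84. The Ikaros Plastic rank with deposited values rests on replicate 2.

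Across the 13 background means the members did not move as 1 group. These correlations describe 13 means that share array scale and array set. Runx1 1422864_at and 1422865_at had r = 0.77 (rho 0.75, and 0.67 without the 2 farthest means), and 0.81 after centring. Runx3 ran with Runx1 1452531_at (r = 0.79, rho 0.88) and 1452530_a_at (r = 0.73, rho 0.63), and after centring these were 0.60 and 0.59. With deposited values, these probe sets also ran with the array median itself: r was 0.83 for Runx3, 0.84 for 1452531_at, 0.81 for 1452530_a_at and -0.75 for Cbfb. Cbfb ran against Runx3 (r = -0.56, rho -0.47, and -0.55 after centring) but along with Runx1 1422865_at (r = 0.72, rho 0.75). Without the 2 farthest means, r for Cbfb and Runx3 was -0.44, and -0.31 after centring. For Cbfb and 1422865_at it was 0.61 under both scalings.

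By centred pattern over the 41 arrays of these backgrounds, the genes most like Runx1 1452530_a_at were Elf3 (r = 0.88), Gp5 (0.87) and Il12b (0.87). Without Ikaros Plastic replicate 2 and LMO1 replicate 2 these were 0.81, 0.84 and 0.85. The nearest to Runx3 were Notum (0.90), Plekhn1 (0.89) and Ly6i (0.87), and without beta-catenin replicates 1 and 3 these were 0.87, 0.86 and 0.86. The nearest to Cbfb were Tsnax (0.89), Pum2 (0.88) and Zbtb14 (0.87). Arrays of a background share a genotype, so the 41 points are not independent.

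Genes known to act with RUNX proteins moved both ways between crossed and TLX1 tumours. The counts of this and the following lists stand beside 20.4% of all probe sets higher and 41.8% lower with deposited values, and 44.7% higher and 24.1% lower after centring. Of 15 partners measured, 3 were higher and 4 lower, with a median difference of 0.07 (all probe sets -0.15); after centring 9 were higher and 2 lower (median 0.44, all probe sets 0.23). Hipk2, a kinase that phosphorylates Runx1, averaged 8.54 ± 0.20 in crossed and 10.63 ± 0.35 in TLX1 tumours (SD, n = 6 each), a difference of -2.09 ± 0.15. Cdk6, a cell-cycle kinase that binds Runx1, averaged 9.40 ± 0.38 in crossed and 7.84 ± 0.37 in TLX1 tumours, a difference of 1.56 ± 0.19. The acetyltransferase Kat6a (-0.64) and the methyltransferase Carm1 (-0.66) were lower, and so was the corepressor Tle1 (-0.37), although only Hipk2 and Kat6a were called lower after centring. The corepressor Tle4 (0.72) and the deacetylase Hdac3 (0.64) were higher.

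Of 17 RUNX targets in T cells, 1 was higher and 12 were lower in crossed than in TLX1 tumours, with a median of -0.54 (all probe sets -0.15, of which 41.8% were lower). After centring 3 were higher and 7 lower (median -0.16, all probe sets 0.23). The recombinase genes Rag2 (7.02 ± 0.17 in crossed and 10.37 ± 0.30 in TLX1 tumours) and Rag1 (8.56 ± 1.11 in crossed and 10.81 ± 1.13 in TLX1 tumours) were lower, with differences of -3.36 and -2.25. The coreceptor genes Cd8a (-2.04) and Cd4 (-1.84) were lower too, and all of these passed after centring. Prf1, which encodes the pore-forming protein of cytotoxic cells, was higher (0.46, and 0.83 after centring). The list mixes genes that RUNX proteins silence, such as Cd4, with genes they favour, such as the cytotoxic ones. Its counts therefore do not measure RUNX activity.

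Against the 13 backgrounds the crossed tumours had 1 of these targets higher and 9 lower (20.7% and 45.8% of all probe sets), and 4 higher and 6 lower after centring (44.2% and 25.1%). Rag1 (-3.17), Cd8b1 (-2.78), Cd8a (-2.27) and Rag2 (-2.21) fell furthest. The target called higher was Il7r, a cytokine receptor of early lymphocytes (1.81 ± 0.48, adjusted p = 0.00116, limma). Of the partners, 3 were higher and 4 lower. Cdk6 (1.17), the corepressor Tle2 (1.08) and Sin3a (0.19) were higher. Hipk2 (-1.27), Carm1 (-0.80), Kat6a (-0.53) and Tle1 (-0.51) were lower. After centring 6 were higher and 3 lower, and Tle1 no longer passed.

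RUNX targets of other blood cells were lower in crossed than in TLX1 tumours in 3 of 7 cases, a share near the 41.8% of all probe sets that were lower, and the other 4 did not pass. After centring the same 3 were lower and Gfi1 (1.13) was higher. The 3 were the macrophage receptor Csf1r (-1.46), the growth factor Csf2 (-1.20) and the regulator Spi1 (-0.89). Against the 13 backgrounds the same 3 were lower (-0.34, -0.46 and -0.47), of which Csf2 alone passed after centring (-0.16), and Gfi1, a repressor in blood progenitors, was higher (1.19, and 1.49 after centring). Of all probe sets 45.8% were lower and 20.7% higher in that comparison, and 25.1% and 44.2% after centring.

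Of 6 measured Runx2 targets in bone, 5 were lower and 1 higher in crossed than in TLX1 tumours, and after centring 4 were lower and 1 higher. Col1a1 (-1.45), Col10a1 (-1.31), Sp7 (-1.22) and Alpl (-1.01) fell, and Mmp13 (0.81) rose. Against the 13 backgrounds Sp7 (-1.17), Alpl (-0.82) and Col10a1 (-0.63) were lower and Mmp13 (0.57) was higher, beside 45.8% and 20.7% of all probe sets. After centring these 4 passed again, and Ibsp (0.40), which encodes a bone matrix protein, was higher too (44.2% of all probe sets higher and 25.1% lower). Against TLX1 tumours Ibsp was instead among the 5 called lower with deposited values. Col1a1 is also a stromal marker, and it varied more among TLX1 tumours (SD 1.17) than among crossed tumours (SD 0.23).

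Markers of other cells moved beside these groups. Between crossed and TLX1 tumours, 4 of 9 T-cell markers were lower with deposited values. They were Cd3d (-1.69), Cd2 (-1.39), Cd3e (-0.88) and Zap70 (-0.73). Of 7 myeloid markers 4 were higher, among them Itgam (1.39) and Adgre1 (1.07), and Csf1r, which is also on the list of blood targets, was lower. The log2 of the summed T-cell marker intensity was 14.40 to 15.33 in crossed and 15.32 to 15.38 in TLX1 tumours, and that of the myeloid markers 13.06 to 15.09 in crossed and 13.23 to 13.91 in TLX1 tumours. With deposited values 1 of 6 stromal markers was lower, as were 3 of 4 erythroid, 2 of 5 B-cell and 2 of 2 NK-cell markers, beside 41.8% of all probe sets. After centring 3 T-cell markers were lower, and 5 myeloid markers were higher and 1 lower. For stromal markers 1 was then higher and 1 lower, for B-cell markers 2 higher and 2 lower, and 2 erythroid markers and 1 NK-cell marker were lower (44.7% of all probe sets higher and 24.1% lower). Against the 13 backgrounds, 4 of 6 stromal markers were higher in crossed and in TLX1 tumours with deposited values. In crossed tumours 4 of 9 T-cell markers were lower, and 3 of 7 myeloid markers higher and 1 lower. Of all probe sets 20.7% were higher and 45.8% lower for crossed tumours, and 30.8% and 24.5% for TLX1 tumours. After centring 5 stromal markers were higher in crossed tumours (median 1.22, all probe sets 0.15) and 3 in TLX1 tumours (0.79 and -0.04). The part of these cells in the Runx1, Runx3 and Cbfb differences was not tested.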

How the data were processed

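Total RNA of 53 tumours was hybridized as biotin-labelled cRNA, 1 array each, per the labels' protocols. The authors deposited signal intensity on a linear scale for 22690 probe sets. Their normalization by the authors, not given in the sources used here, can change any difference in overall level. All 53 value columns were used, as log2. The number of arrays limits the precision.

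Member genes and lists were chosen with earlier results of these data known. Of the probe sets, 20393 carried 1 symbol in the platform's gene table, 691 several and 1606 none, and 64 were controls. Groups follow the genotype labels. Separate animals are not stated for the tumours of a group. The p-values therefore cover only the spread of these samples, part of which may be technical. No 2 arrays held identical values (highest correlation 0.9879).

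All 22626 other probe sets were fitted in limma 3.58.1 (R 4.3.3; lmFit and eBayes, two-sided) as 15 background means, with Benjamini-Hochberg adjustment and a threshold of 0.05. Crossed and TLX1 tumours were compared with each other and with the mean of 13 background means, each of those 13 with the mean of the other 12, and all 13 by a moderated F-test. TLX1 and crossed arrays were left out of these comparison means because earlier results of these data had shown them to stand apart. The pipeline was tested on simulated data.

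All probe sets of the members are named. From the lists, up to 4 called genes of largest difference per direction were named, through the brightest probe set of a gene. The 3 genes of most similar pattern were taken among named genes that exceeded the array median on 3 or more arrays. Array sets were found by clustering 27 bacterial control probe sets into 4, after the values were seen. Alternatives were median centring, quantile normalization, a filter on dim probe sets, trended and robust eBayes, other comparison means, a replicate block, array set as a block, and leaving out each array. Chosen after seeing the data were the removal of the p53 knockout arrays of the TLX1 set, the beta-actin covariate with and without centring, the largest array set by itself, and centred values of the crossed and TLX1 arrays alone. Promoter windows came from RefSeq (GRCm38.p6). Python 3.11.15, pandas 2.3.3, NumPy 2.4.6 and Matplotlib 3.10.9 were used for tables and plots.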

Additional observations from a re-analysis of the deposited data

Results flagged for a closer look

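Among 21 pairs of probe set and background with 4 or more arrays, 1 held a sample whose gap to its nearest neighbour was large against the range of the pair. Runx1 1427650_a_at was 10.23 in Cdkn2a knockout replicate 7, and the next of the 9 arrays was 9.59. The title of replicate 7 carries the label myc mix, and the part of such labels was not tested. Chance flags about 1 in 20 such pairs, and these pairs share arrays, so they are not independent. Replicate 7 also had the highest value of its group at Runx1 1422864_at (10.27) and 1422865_at (9.63).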

How the results depend on the processing

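After median centring, crossed minus TLX1 tumours had 3 members higher and 2 lower, and after quantile normalization 2 higher and 2 lower. Runx1 1452531_at changed sign there, to 0.036 and 0.018. The cause was not tested here or below. Against the 13 backgrounds the crossed tumours had 1 higher and 3 lower after centring, with signs turned at Runx1 1422865_at (0.029) and 1452531_at (0.0011), and 3 lower after quantile normalization. TLX1 minus 13 backgrounds turned sign at 1452531_at under both scalings (-0.035 and -0.051). Comparison with the mean of the arrays, or with all 14 other backgrounds, gave 1 member higher in crossed tumours.

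The 12 crossed and TLX1 arrays alone gave 2 members higher. Centred as well, an alternative chosen after seeing the data, they gave 3 higher and 2 lower, with 1452531_at at 0.036. Replicate numbers are shared by the groups, but deviations of same-numbered crossed and TLX1 arrays correlated at -0.17 to 0.154, and 2 of 6 crossed and 1 of 6 TLX1 arrays correlated best with their own number. The replicate block gave 2 members higher on those 12 arrays. On the 44 arrays numbered in their titles the replicate block gave 1 member higher against the 13 backgrounds, and TLX1 values of -0.0047 for 1452531_at and 0.017 for Cbfb.

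For TLX1 against the p53 knockout arrays of its array set, 0 members were called lower (limma), and the values of the probe sets that turned sign were 0.071 (1422864_at), 0.32 (1422865_at), 0.070 (1452530_a_at), -0.18 (1452531_at), 0.037 (Runx3) and 0.29 (Cbfb). With array set as a block 0 were lower, and the turned values were 0.086 (1422864_at), 0.71 (1422865_at), 0.10 (1452530_a_at), -0.47 (1452531_at) and 0.21 (Cbfb). p53 knockout tumours turned sign at 1422864_at and 1422865_at with that block (0.016 and 0.42), in the largest array set alone (0.016 and 0.42) and without the arrays of the TLX1 set (0.017 and 0.42).

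Chosen after seeing the data, the beta-actin covariate left crossed minus TLX1 with 0 members higher (limma), crossed minus 13 with 1 higher and Runx1 1422865_at at 0.086, and TLX1 minus 13 with 1 lower, 1452531_at at -0.17 and Cbfb at 0.12. With centring too, crossed minus TLX1 had 2 higher and 2 lower, with 1452531_at at 0.14, crossed minus 13 had 1 higher and 3 lower, with 1422865_at at 0.40, and TLX1 minus 13 had 1 lower, with 1452531_at at -0.21 and Cbfb at 0.082.

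Leaving out each array in turn gave 1 to 2 members higher and 3 to 4 lower for crossed minus TLX1, 0 to 1 higher and 4 to 5 lower for crossed minus 13, 0 higher and 4 lower for TLX1 minus 13, 26 to 33 called pairs among the 13 backgrounds, and 7 members passing the F-test throughout. In TLX1 minus 13 the non-called values of 1452531_at ran from -0.055 to 0.10 and those of Cbfb from -0.16 to 0.027. The filter on dim probe sets leaves out Runx3, which exceeded the array median on fewer than 3 arrays.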
